A study of Mus musculus with 8 samples.

Results

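Aquaporins are membrane channels for water, and some of them also carry glycerol or anions. The aquaporins described here are the 7 genes Aqp1, Aqp2, Aqp3, Aqp4, Aqp6, Aqp7 and Aqp11. They were chosen by name, with earlier results of these data known. In the deposited gene table of 21874 rows, 12 aquaporin genes have a row. All 7 passed the filter on low values, which kept 10757 rows. The libraries were made from proximal tubular cells isolated from the renal cortex of male C57BL/6 mice, a standard inbred strain, with 2 libraries at each of 0, 24, 48 and 72 h of an acute kidney injury set off by 30 mg/kg of cisplatin, a platinum anticancer drug that proximal tubule cells take up. The labels give the same treatment text to the 0 h libraries, so whether those mice had received an injection is not stated, and no source used here gives the age of the animals. The design text calls the duplicates biological without naming separate animals, so p-values measure only the spread between these libraries, which carry the letters a and b.

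Water channels divide the work along the nephron. AQP1 sits in both faces of proximal tubule and descending thin limb cells and lets filtered water follow reabsorbed salt, while AQP7 carries glycerol and water across the brush border of the last proximal segment and AQP11 lies inside proximal tubule cells, in the endoplasmic reticulum. In the collecting duct, principal cells insert AQP2 into the apical membrane when vasopressin acts through cyclic AMP, and water leaves through AQP3 and AQP4 on the basolateral side. AQP6 is held in vesicles of acid-secreting intercalated cells. Cisplatin is known to leave animals with a reduced ability to concentrate urine.

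The DNA just upstream of 5 of the genes is shown first, to set the sequence beside the RNA values. Each line gives the 250 bases before the RefSeq start site on the GRCm38.p6 build, read 5′ to 3′ on the strand of the gene. The sequences are from RefSeq. Capitals mark matches, on either strand, to 5 short motifs: TATAA (core of the TATA box), TGACG (an arm of a cyclic AMP response element), AGATAA (for factors of the GATA family), AGGTCA (an arm of a nuclear receptor element) and TGGAAA (core of the NFAT5 site). Aqp2 and Aqp3 are shown as the collecting duct pair whose RNA parted, and Aqp1, Aqp7 (the first of its 2 start sites) and Aqp11 as the proximal tubule genes.
Aqp2, chr15:99578806-99579055, plus strand: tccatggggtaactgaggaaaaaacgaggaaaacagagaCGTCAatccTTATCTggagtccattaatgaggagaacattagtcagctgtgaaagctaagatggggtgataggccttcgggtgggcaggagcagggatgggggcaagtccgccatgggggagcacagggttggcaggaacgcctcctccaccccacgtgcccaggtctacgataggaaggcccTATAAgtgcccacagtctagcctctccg
Aqp3, chr4:41098184-41098433, minus strand: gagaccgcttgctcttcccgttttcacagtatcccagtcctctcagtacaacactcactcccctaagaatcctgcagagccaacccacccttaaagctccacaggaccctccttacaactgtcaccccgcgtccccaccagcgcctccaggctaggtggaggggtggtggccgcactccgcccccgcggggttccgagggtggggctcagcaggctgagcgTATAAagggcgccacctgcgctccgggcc
Aqp1, chr6:55336049-55336298, plus strand: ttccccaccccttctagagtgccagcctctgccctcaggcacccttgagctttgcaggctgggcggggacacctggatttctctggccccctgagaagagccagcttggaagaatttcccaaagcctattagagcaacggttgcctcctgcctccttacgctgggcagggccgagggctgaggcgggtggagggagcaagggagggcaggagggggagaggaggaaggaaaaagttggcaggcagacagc
Aqp7, chr4:41048137-41048386, minus strand: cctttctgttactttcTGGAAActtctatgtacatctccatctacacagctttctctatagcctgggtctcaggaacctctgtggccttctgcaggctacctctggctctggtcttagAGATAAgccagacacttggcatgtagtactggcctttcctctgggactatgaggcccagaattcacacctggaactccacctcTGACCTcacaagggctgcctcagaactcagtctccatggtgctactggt
Aqp11, chr7:97738248-97738497, minus strand: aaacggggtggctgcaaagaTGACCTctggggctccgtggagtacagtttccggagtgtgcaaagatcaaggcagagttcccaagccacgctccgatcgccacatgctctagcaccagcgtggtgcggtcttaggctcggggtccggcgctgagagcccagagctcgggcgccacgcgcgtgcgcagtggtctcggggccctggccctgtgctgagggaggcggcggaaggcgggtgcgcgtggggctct

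The TATAA letters lay 28 to 24 bases before the start in Aqp2 and 29 to 25 bases before it in Aqp3, and 22.78% of 32851 RefSeq windows of the same length hold them somewhere on either strand. The Aqp2 window also held the cyclic AMP response motif on the other strand, 211 to 207 bases before the start, a motif found in 17.77% of windows, and a GATA match on the other strand at 202 to 197, a motif found in 9.988%. Aqp7 held a GATA match at 132 to 127, a nuclear receptor arm on the other strand at 49 to 44 and an NFAT5 core at 234 to 229, and the last 2 motifs are found in 14.02% and 18.58% of windows. Aqp11 held the nuclear receptor arm alone, on the other strand at 230 to 225. In the Aqp1 window none of the 5 motifs was found. These letters are descriptions of the windows, and no factor was measured on them. The rows of Aqp1 and Aqp2 in the gene table begin 319 and 569 bases upstream of the RefSeq start, and the row of Aqp3 begins 10720 bases upstream of it.

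Levels are in FPKM (fragments scaled to gene length and to mapped depth), which can be compared between genes, although the sequencing depth behind them is unknown. Before and early after cisplatin Aqp1 was the most abundant of the 7 genes by a wide margin, and by 72 h Aqp2 had come close to it. At 0 h the order of the mean levels was Aqp1 at 275 ± 1.83 (SD, n = 2), Aqp3 at 38.4 ± 2.72, Aqp2 at 33.2 ± 5.71, Aqp7 at 18.2 ± 0.807, Aqp11 at 17.0 ± 0.129, Aqp6 at 5.54 ± 0.808 and Aqp4 at 3.95 ± 0.448. The Aqp2 and Aqp3 libraries overlapped in this order, and Aqp7 and Aqp11 differed by little more than their spread. At 72 h the order was Aqp1 at 105 ± 1.38, Aqp2 at 96.7 ± 7.67, Aqp3 at 40.3 ± 1.93, Aqp4 at 7.73 ± 1.06, Aqp7 at 6.09 ± 0.220, Aqp6 at 3.96 ± 2.13 and Aqp11 at 3.15 ± 0.0868. The gap between Aqp1 and Aqp2 was then close to the SD of Aqp2, although the libraries of one did not reach those of the other, and Aqp6 overlapped Aqp11.

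**Figure D1:**
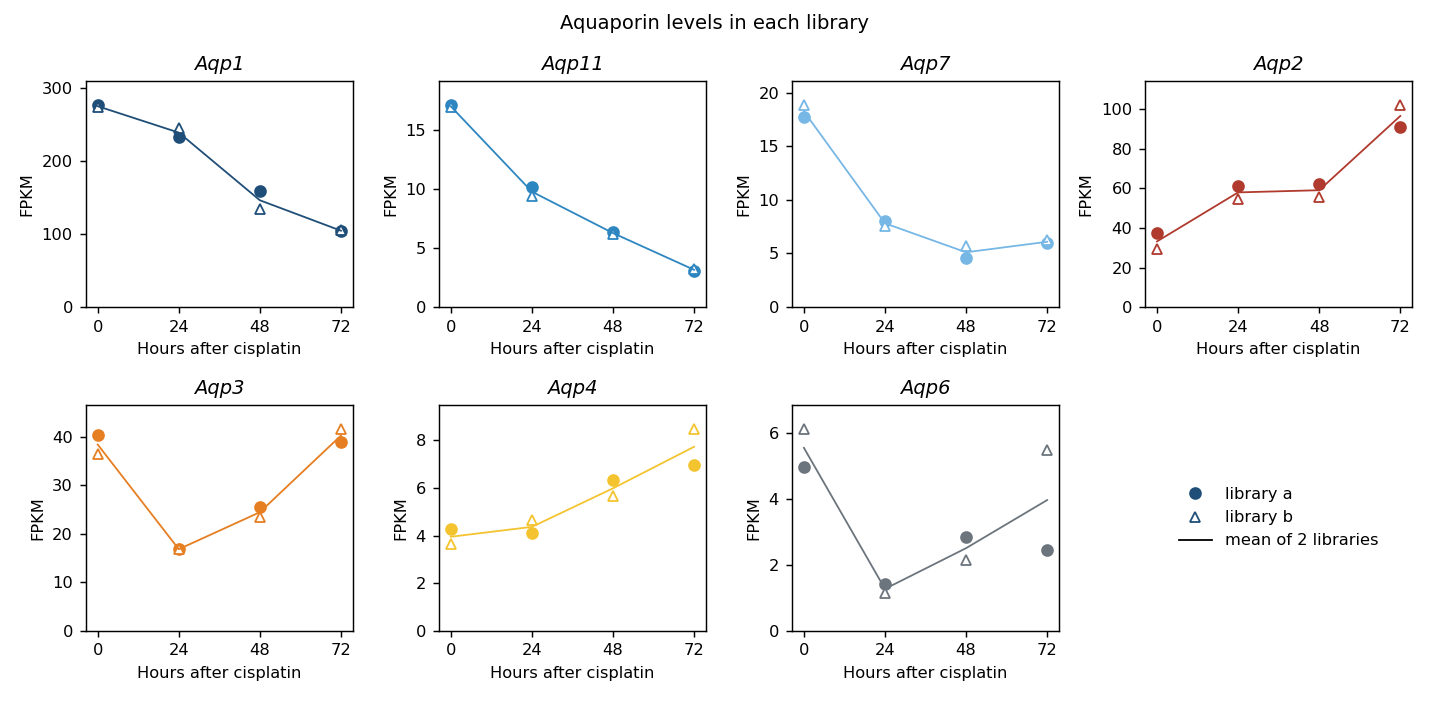
FPKM of each aquaporin gene (y axis, from 0) against hours after cisplatin (x axis), with filled circles for library a, open triangles for library b and a line through the mean of the 2. Aqp1 and Aqp11 step down from 277 and 17.1 FPKM (library a, 0 h) to 104 and 3.09 (library a, 72 h), Aqp2 steps up from 37.2 to 91.2, and Aqp3 dips to 16.9 at 24 h and comes back to 38.9.

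Differences were tested with limma on log2(FPKM + 1), a scale that understates changes of low genes, with Benjamini-Hochberg adjustment over all 10757 rows and a threshold of 0.05 (a gene past it is called). All 7 genes differed over the 4 times by limma's moderated F test, where 84.2% of rows did. Against 0 h at 24 h, 1 of the 7 was called higher and 4 lower, where 65.8% of all rows were called (25.8% higher and 40.0% lower). At 48 h 2 were higher and 5 lower, against a background of 70.5% (28.5% higher and 42.1% lower). By 72 h 2 were higher, 3 lower and 2 not called, against 70.0% (37.6% higher and 32.4% lower). The libraries did not overlap those of 0 h for 6 genes at 24 h, 7 at 48 h and 5 at 72 h, where 81.8%, 86.4% and 86.6% of rows did not. Between 24 and 48 h 2 were higher and 3 lower (28.3% of rows called, 11.2% higher and 17.2% lower, with 63.3% not overlapping), and between 48 and 72 h 2 and 2 (48.4%, 37.2%, 11.3% and 77.7%). Median differences of the 7 from 0 h were -0.74, -0.90 and -0.46 in the 3 comparisons, beside -0.12, -0.13 and 0.07 for all rows. Most of the 10757 tested rows were called against 0 h, and these 3 comparisons share their 0 h libraries. All of these counts describe the 7 genes, and none was tested against the other rows.

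**Figure D2:**
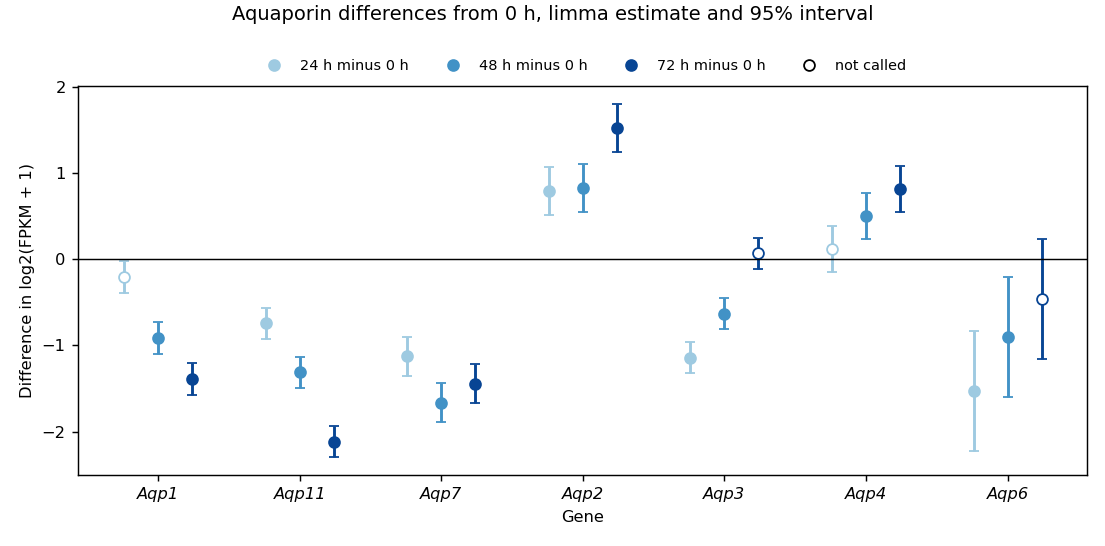
Difference from 0 h in log2(FPKM + 1) (y axis) for each gene (x axis) at 24, 48 and 72 h, as limma's estimate with its 95% interval, with open circles for differences that were not called. Aqp11 falls at each time to -2.11, Aqp2 rises to 1.52, and the intervals of Aqp3 at 72 h (-0.11 to 0.25) and Aqp6 at 72 h (-1.16 to 0.23) span 0.

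The 3 proximal tubule channels all fell. Aqp7 fell the most of them at 24 and 48 h and Aqp11 at 72 h, and Aqp1 was first called at 48 h. Aqp1 (chr6:55335980-55348555 on mm10, plus strand) read 277 and 274 FPKM in libraries a and b at 0 h, then 233 and 245 at 24 h, 159 and 134 by 48 h, and finally 104 and 106 at 72 h. Every later library lay below both 0 h libraries, and the times did not overlap. The 24 h difference was -0.20 (SE 0.08, adjusted p = 0.0539 by limma) and was not called, and it took the other sign when libraries were brought to 1 distribution (0.02), to 1 total (0.11) or to 1 total without mitochondrially encoded rows (0.03). The fall was -0.91 at 48 h (adjusted p = 1.04e-05) and -1.39 at 72 h (6.49e-07), which is 2.63-fold lower in mean FPKM, and both held under every alternative tried. Each step was called on its own, by -0.71 from 24 to 48 h (adjusted p = 0.000469) and by -0.48 from 48 to 72 h (0.00161). With the libraries brought to 1 distribution the values at 48 and 72 h were -0.37 and -0.90, still called.

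Aqp11, whose loss in mice gives vacuolated proximal tubules and polycystic kidneys, read 17.1 and 16.9 FPKM at 0 h, against 10.1 and 9.38 at 24 h, 6.34 and 6.19 by 48 h and, last, 3.09 and 3.21 at 72 h. No 2 times overlapped. The differences from 0 h were -0.74, -1.31 and -2.11 (SE 0.08 each, adjusted p = 4.30e-05, 8.97e-07 and 4.03e-08 by limma), and the last is 5.38-fold lower in mean FPKM. Only 2.43% of tested rows had a lower difference at 72 h. Aqp11 also fell in each later step, by -0.57 (adjusted p = 0.00119) and -0.81 (9.04e-05), and 1.70% of tested rows had a lower value in the last of these. All of these calls held under every alternative tried. The row (chr7:97723860-97738247, minus strand) runs 2519 bases past the RefSeq 3′ end.

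Aqp7, the glycerol channel, fell by 24 h and again by 48 h and was still low at 72 h. It read 17.7 and 18.8 FPKM at 0 h, then 8.03 and 7.59 at 24 h, 4.56 and 5.66 by 48 h, and finally 5.93 and 6.25 at 72 h. The 0 h libraries stood apart from all later ones, and the 48 and 72 h libraries lay close together. Differences from 0 h were -1.13, -1.66 and -1.44 (SE 0.10 each, adjusted p = 1.56e-05, 9.53e-07 and 1.98e-06 by limma), the middle one being 3.57-fold lower in mean FPKM, and all 3 held under every alternative tried. The step from 24 to 48 h was called lower (-0.53, adjusted p = 0.00548) and also held under every alternative tried. Between 48 and 72 h the difference was 0.22 (interval -0.01 to 0.45, adjusted p = 0.103) and was not called, except that leaving out library b of 48 h gave 0.35 (adjusted p = 0.0337). Unlike the row of Aqp1, the row of Aqp7 (chr4:41020041-41048139, minus strand) reaches 13033 bases past the RefSeq 3′ end and overlaps the row of Nfx1 on the other strand. Nfx1 read 8.58 and 9.23 FPKM at 0 h, against 5.16 and 4.94 at 24 h, 6.65 and 6.27 by 48 h and, last, 9.07 and 10.01 at 72 h, and no source used here says whether fragments were assigned by strand.

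The collecting duct channels did not move together. Aqp2, the vasopressin-regulated apical channel, read 37.2 and 29.2 FPKM at 0 h, then 61.2 and 54.8 at 24 h, 62.4 and 55.8 by 48 h, and finally 91.2 and 102 at 72 h. Both 0 h libraries lay below every other library, the 24 and 48 h libraries overlapped, and both 72 h libraries were the highest. The rise was 0.79 at 24 h, 0.82 at 48 h and 1.52 at 72 h (SE 0.12 each, adjusted p = 0.000450, 0.000307 and 6.14e-06 by limma), or 2.91-fold in mean FPKM at 72 h, and it held under every alternative tried. The step from 24 to 48 h was 0.03 (interval -0.25 to 0.30, adjusted p = 0.894), and the step from 48 to 72 h was 0.70 (0.00186). The row (chr15:99578487-99586499, plus strand) lies inside a much longer row named for Nckap1l, on the same strand, which read 882 and 890 FPKM at 0 h and 331 and 322 at 72 h and so moved the other way. No source used here says how fragments were shared between the 2 rows.

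Aqp3, a basolateral exit for water and glycerol, read 40.4 and 36.5 FPKM at 0 h, against 16.9 and 16.8 at 24 h, 25.6 and 23.4 by 48 h and, last, 38.9 and 41.6 at 72 h. The 24 h libraries were the lowest, the 48 h libraries lay between, and the 72 h libraries overlapped those of 0 h. The fall was -1.14 at 24 h (SE 0.08, adjusted p = 3.65e-06 by limma), 2.28-fold in mean FPKM, and -0.63 at 48 h (8.92e-05), the latter lost when libraries were brought to 1 total (-0.14, adjusted p = 0.168) or to 1 total without mitochondrially encoded rows (-0.20, 0.0544). At 72 h the difference was 0.07 (interval -0.11 to 0.25, adjusted p = 0.468) and was not called, and it was called higher under 3 scalings: 1 distribution (0.32, adjusted p = 0.00596), 1 total (0.41, 0.00166) and 1 total without mitochondrially encoded rows (0.35, 0.00492). The return itself was called in each step, by 0.51 (adjusted p = 0.00192) and 0.70 (0.000195), and held under every alternative tried. The row (chr4:41092700-41108903, minus strand) neighbours that of Aqp7.

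Aqp4, the other basolateral channel of principal cells, which mouse proximal tubules also carry in their last segment, was low and rose late. It read 4.27 and 3.63 FPKM at 0 h, then 4.10 and 4.64 at 24 h, 6.32 and 5.65 by 48 h, and finally 6.98 and 8.48 at 72 h. The 0 and 24 h libraries overlapped, and those of 48 and 72 h lay above them. The difference was 0.12 at 24 h (interval -0.15 to 0.38, adjusted p = 0.403), not called except at 1 total (0.37, 0.0287). It was 0.50 at 48 h (adjusted p = 0.00430) and 0.82 at 72 h (0.000221, limma), 1.96-fold in mean FPKM, and both held under every alternative tried. The step from 24 to 48 h (0.38, adjusted p = 0.0410) was lost when any of the 4 libraries compared was left out, with adjusted p between 0.0533 and 0.192. The row of Aqp4 extends 27751 bases past the RefSeq 3′ end, over A830021F12Rik.

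Aqp6, the vesicle channel of intercalated cells, read 4.97 and 6.11 FPKM at 0 h, against 1.40 and 1.13 at 24 h, 2.85 and 2.15 by 48 h and, last, 2.45 and 5.46 at 72 h. The 24 h libraries were the lowest, and the 72 h libraries lay far apart, with library b inside the 0 h range and library a inside the 48 h range. The fall at 24 h was -1.52 (SE 0.29, adjusted p = 0.00329 by limma), 4.37-fold in mean FPKM, and held under every alternative tried. At 48 h it was -0.90 (adjusted p = 0.0281), a call lost when any single library of 0, 24 or 48 h was left out, with adjusted p between 0.0532 and 0.127, or when libraries were brought to 1 total with or without mitochondrially encoded rows (0.157 and 0.117). At 72 h it was -0.46 (interval -1.16 to 0.23, adjusted p = 0.193) and was not called, but was called without library b of 72 h (-0.92, 0.00231). The row (chr15:99601205-99605480, plus strand) also lies inside the long row of Nckap1l.

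Neighbouring aquaporin genes did not all move alike. On chromosome 15 the rows of Aqp2, Aqp5 and Aqp6 follow each other on the plus strand. Aqp2 rose at 24 h and Aqp6 fell. Aqp5, too low to be tested, read 0.0262 and 0.0195 FPKM at 0 h, 0.131 and 0.123 at 24 h, and at most 0.141 in any of the 8 libraries. On chromosome 4 Aqp7 and Aqp3 lie next to each other on the minus strand and both fell at 24 h, after which Aqp3 came back by 72 h and Aqp7 did not. Of the other aquaporins with a row, Aqp8 read between 0.716 and 1.23 FPKM and was not called in any comparison with 0 h, Mip and Aqp9 stayed at or below 0.0459 and 0.121 FPKM, and Aqp12 was listed at 0 in every library. None of 2163 circular RNA back-splices in the deposited circRNA table, whose libraries held 13603 to 21024 counts, lay in any of the 7 genes.

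The make-up of the aquaporin RNA moved from Aqp1 towards Aqp2. Summed over the 7 genes, FPKM was 398 and 385 at 0 h, then 335 and 339 at 24 h, 267 and 233 by 48 h, and finally 252 and 273 at 72 h. Aqp1 held 69.5% and 71.1% of the sum at 0 h and 69.6% and 72.2% at 24 h, then 59.5% and 57.6% at 48 h and 41.1% and 38.7% at 72 h. Aqp2 went from 9.36% and 7.58% at 0 h to 36.2% and 37.4% at 72 h. The ratio of Aqp1 to Aqp2, which does not depend on a library's total, was 7.42 and 9.39 at 0 h, against 3.81 and 4.47 at 24 h, 2.54 and 2.40 by 48 h and, last, 1.14 and 1.03 at 72 h. Within the principal cell pair, the ratio of Aqp2 to Aqp3 was 0.923 and 0.799 at 0 h, then 3.63 and 3.26 at 24 h, 2.44 and 2.39 by 48 h, and finally 2.34 and 2.45 at 72 h. At 0 h Aqp3 was the higher of the pair in both libraries, and in all 6 later libraries Aqp2 was.

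**Figure D3:**
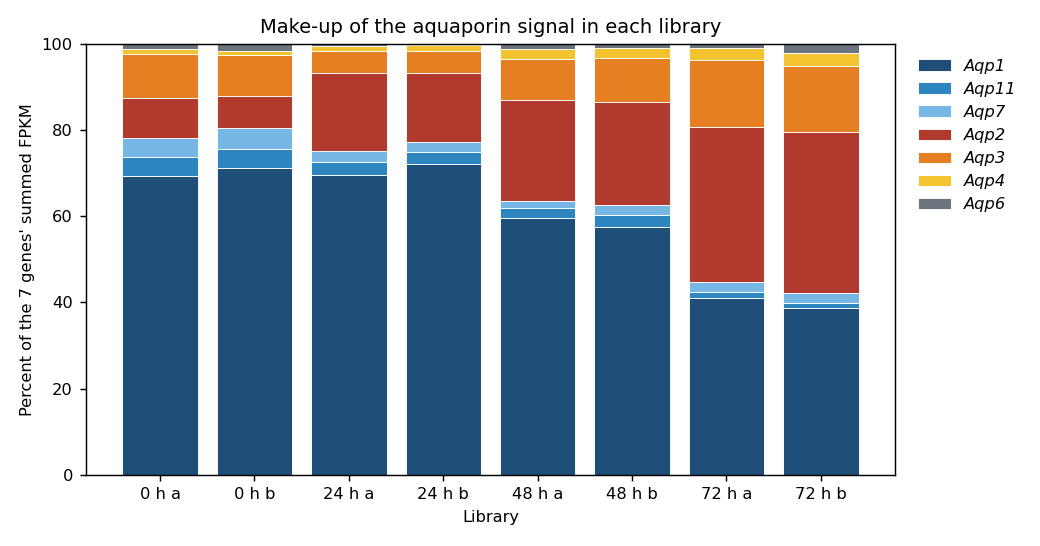
Share of each gene in the summed FPKM of the 7 aquaporins (y axis, percent) in each of the 8 libraries (x axis, time and letter). Aqp1 shrinks from 69.5% and 71.1% at 0 h to 41.1% and 38.7% at 72 h, while Aqp2 grows from 9.36% and 7.58% to 36.2% and 37.4%.

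The cell types that carry these channels were followed by their other markers. In bulk RNA fewer cells of a type and less RNA of a gene per cell cannot be told apart. Proximal tubule identity was plain at 0 h, with all 10 proximal tubule markers present and a summed level of 5560 to 6070 FPKM, which dropped to 2136 to 2486 at 24 h, 1318 to 1403 at 48 h and 708 to 720 at 72 h. All 10 were called lower at each time, with medians of -1.31, -2.22 and -2.99. Of all rows, 40.0%, 42.1% and 32.4% were lower at 24, 48 and 72 h, and 25.8%, 28.5% and 37.6% higher. Slc34a1, the main phosphate transporter of the brush border, went from a mean of 1440 to 94.2 FPKM at 72 h (-3.92, adjusted p = 2.52e-09 by limma), and Cubn, an endocytic receptor, from 274 to 32.3 (-3.05, adjusted p = 2.28e-09). Aqp1 at -1.39 and Aqp7 at -1.44 moved less at 72 h than any of the 10 markers, whose differences lay between -4.38 and -2.20, and Aqp11 at -2.11 lay just outside that range. These gaps between genes were not tested, and log2(FPKM + 1) understates the change of Aqp7 and Aqp11 more than that of the markers. The libraries also held RNA of other cells: 5 thick ascending limb markers summed to 500.0 to 505 FPKM at 0 h and 175 to 176 at 72 h, with all 5 lower at each time. Podocyte markers went from 50.01 to 54.5 FPKM at 0 h to 76.9 to 78.0 at 72 h (5 of 7 tested higher and 1 lower). Neutrophil markers rose from a sum of 1.08 to 1.30 to one of 75.1 to 77.7 (6 of 6 higher) and macrophage markers from 33.1 to 38.4 to 136 to 140 (5 of 5 higher), and their part in the aquaporin values was not tested.

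Aqp1 is also made by descending thin limb cells, by endothelium of the descending vasa recta and by red cells. Of 8 thin limb markers with a row 6 were tested, of which 4 were called higher and 2 lower at each time. The summed level went from 61.4 to 69.6 FPKM at 0 h to 249.8 to 260.2 at 72 h. This was mostly through the tight junction gene Cldn4, with a mean of 5.96 at 0 h and 145 at 72 h. The markers that fell or could not be tested are named here after their values were seen. Slc39a8 and Akr1b3, called lower, went from means of 12.2 and 38.1 FPKM at 0 h to 3.84 and 31.6 at 72 h. Corin and Epha7, not tested, went from 0.706 and 0.744 to 0.300 and 0.429. Of 10 endothelial markers 9 were tested, with 2 higher and 3 lower at 24 h, 2 of each at 48 h and 8 higher at 72 h. Among all rows, 25.8%, 28.5% and 37.6% were higher at 24, 48 and 72 h, and 40.0%, 42.1% and 32.4% lower. The untested marker, Slc14a1, named after its values were seen, was low and ended lower. Its 0 h mean was 0.845 FPKM, and the means of the later times were 0.999, 0.347 and 0.237 in order. The summed level of all 10 still rose, from 87.6 to 92.0 FPKM at 0 h to 168 to 170 at 72 h. Red cell RNA went the other way: 3 of 7 markers were tested and all 3 fell at each time, the summed level dropping from 380 to 388 FPKM at 0 h to 205 to 235 at 24 h, 67.3 to 72.7 at 48 h and 5.39 to 5.87 at 72 h. Nearly all of it was the beta globin row Hbb-bs, which also covers Hbb-bt. Some genes stand on more than 1 list. Slc4a1 marks both red and intercalated cells, and Kcnj1 both thick ascending limb and principal cells. Slc14a1, Slc14a2 and Akr1b3 are also on the list of osmotic and urea transport genes. Avpr2 and Gata3 are principal cell markers as well as genes acting on Aqp2. Nfat5 is on the osmotic list and on that of transcription factors linked to collecting duct water channels. The part of these cells in the fall of Aqp1 was not tested.

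Principal cell markers moved both ways, where over all rows 25.8% were higher and 40.0% lower at 24 h, and 28.5% and 42.1% at 48 h. Of 11 markers 10 had a row, and these 10 were tested. At 24 h 2 were called higher and 5 lower, by 48 h this was 2 and 6, and by 72 h 3 and 5, with medians of -0.63, -0.73 and -0.32, and the summed level was 176 to 186 FPKM at 0 h, 120 to 127 at 24 h, 135 to 139 at 48 h and 189 to 195 at 72 h. Hsd11b2, which shields the mineralocorticoid receptor from glucocorticoids, dropped from 22.2 and 20.6 FPKM at 0 h to 2.53 and 2.37 at 24 h and stood at 13.6 and 13.7 at 72 h. Kcnj1, the apical potassium channel, Scnn1g, a subunit of the epithelial sodium channel, and Npnt, a matrix protein, fell at all 3 times and were nearest to 0 h at 72 h, with differences of -1.01, -0.78 and -0.66. The markers that rose at all 3 times, named after their values were seen, were Fxyd4, a regulator of the sodium pump (0.40, 0.66 and 0.95), and Scnn1a, another sodium channel subunit whose row also covers Tnfrsf1a (0.37, 0.29 and 0.96). Aqp2 exceeded each of the 10 in its difference at all 3 times, and the ratio of Aqp2 to Hsd11b2 was 1.68 and 1.41 at 0 h, as much as 24.2 and 23.1 at 24 h, and still 6.72 and 7.47 at 72 h. Against Fxyd4 the ratio of Aqp2 was 1.17 and 0.967 at 0 h but 1.501 and 1.67 at 72 h. The part of the number of principal cells in the rise of Aqp2 was not tested.

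Most intercalated cell markers fell with Aqp6. Of 10 markers 8 were called lower at 24 and 48 h, and 7 lower and 1 higher at 72 h. The shares of all rows called lower were 40.0% at 24 h, 42.1% at 48 h and 32.4% at 72 h, with 37.6% higher at 72 h. The summed level of the 10 was 85.4 to 93.3 FPKM at 0 h, 33.3 to 33.6 at 24 h, 27.5 to 32.6 at 48 h and 45.4 to 46.5 at 72 h. Foxi1, the transcription factor that defines these cells, went from 2.22 and 2.07 FPKM at 0 h to 0.0394 and 0.0986 at 24 h. It stood at 1.30 and 1.35 at 72 h, still called lower than at 0 h (-0.44, adjusted p = 0.00237 by limma). Atp6v1b1, a subunit of their proton pump, had a mean of 22.4 at 0 h, 6.73 at 24 h and 8.28 at 72 h. Slc4a9 was called lower at 24 and 48 h but not called at 72 h, with means of 7.29 FPKM at 0 h and 8.08 at 72 h. The other exceptions are named after their values were seen. Atp6v1g3 was not called at any time against 0 h, and Atp6v0d2 was called only at 72 h, as higher (0.62). The part of intercalated cells in the fall of Aqp6 was not tested.

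**Figure D4:**
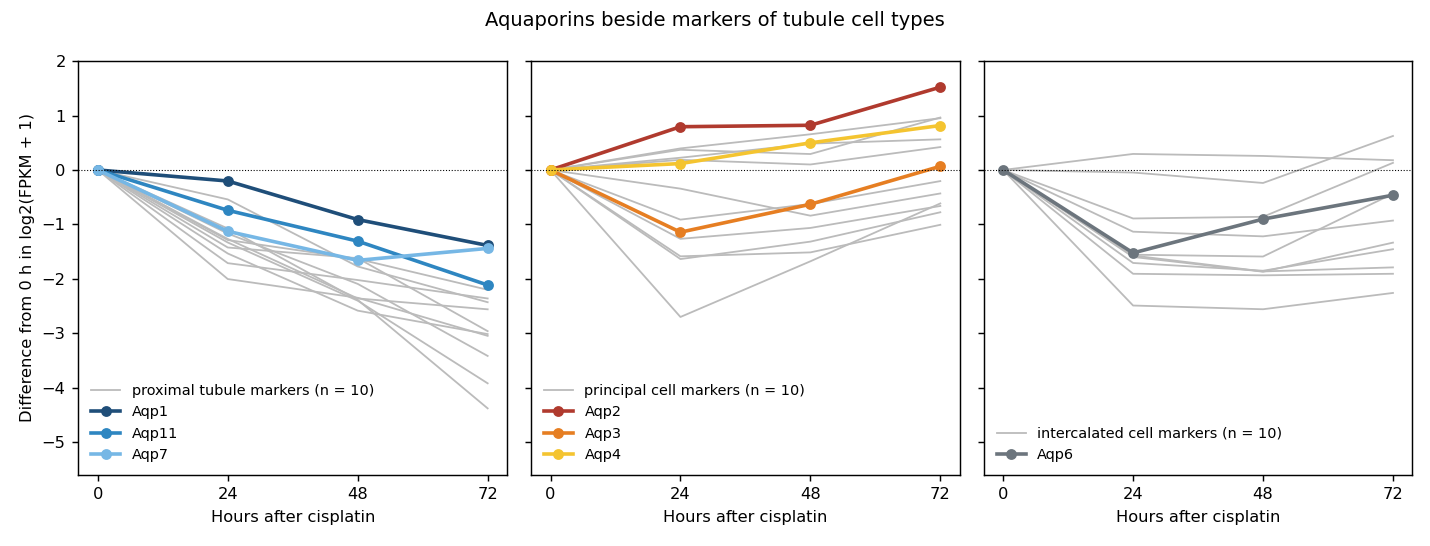
Difference from 0 h in log2(FPKM + 1) (y axis) against hours after cisplatin (x axis), with coloured lines for aquaporins and grey lines for the 10 markers of proximal tubule (left), principal (middle) and intercalated cells (right). Aqp1 and Aqp7 end above all 10 proximal markers at -1.39 and -1.44, Aqp2 lies above all 10 principal cell markers, and Aqp6 drops among the intercalated cell markers to -1.52 at 24 h.

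Genes that act on AQP2 in principal cells also moved both ways. At 24 h their shares were near those of all rows (25.8% higher and 40.0% lower). The shares of all rows were 28.5% higher and 42.1% lower at 48 h, and 37.6% and 32.4% at 72 h. Of 21 tested genes of vasopressin signalling and AQP2 trafficking, 4 were higher and 10 lower at 24 h, with 3 and 12 by 48 h, and then 4 and 8 at 72 h, with medians of -0.30, -0.32 and 0.04, but the split turned to 9 and 5 at 48 h and 11 and 4 at 72 h with libraries brought to 1 total, and to 7 and 6 at 48 h with 1 distribution. Adcy6, the adenylate cyclase that serves the vasopressin receptor, read 15.6 and 16.1 FPKM at 0 h, against 1.72 and 1.69 at 24 h, 1.05 and 0.965 by 48 h and, last, 10.4 and 10.7 at 72 h. Its difference was -2.64 at 24 h and -3.07 at 48 h (adjusted p = 8.29e-08 and 2.21e-08 by limma). Prkaca, the catalytic subunit of protein kinase A, which phosphorylates AQP2, read 25.7 and 23.9 at 0 h and 11.4 and 10.05 at 24 h, a difference of -1.14. Myo5b, a motor that moves recycling vesicles, changed by -1.47, -1.60 and -1.09, and Hspa8, a chaperone that binds AQP2 during its retrieval, by -0.71, -1.32 and -1.10, all called lower. The receptor itself, Avpr2, named after its values were seen, read 3.99 and 3.36 at 0 h, then 2.33 and 3.06 at 24 h, 1.79 and 1.44 by 48 h, and finally 2.25 and 2.68 at 72 h. It was called lower at 48 h (-0.84) and 72 h (-0.43). The genes called higher are also named after their values were seen. Prkar1a (0.47, 0.70 and 0.86), Rab11a (0.32, 0.32 and 0.58) and Vamp3 (0.25, 0.37 and 0.41) were higher at all 3 times. Creb1 was called higher at 24 h only (0.32), and Arhgdia at 72 h only (0.61).

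Transcription factors linked to collecting duct water channels moved both ways. Of 10 tested, 4 were higher and 4 lower at 24 and 48 h, then 5 and 3 at 72 h. Over all rows, 25.8%, 28.5% and 37.6% were higher at 24, 48 and 72 h, and 40.0%, 42.1% and 32.4% lower. Nfat5, which drives the response to hypertonic stress, rose from 7.91 and 7.54 FPKM at 0 h to 16.1 and 14.8 at 24 h and 22.6 and 21.0 at 72 h (1.38, adjusted p = 5.05e-07 by limma). Elf3, an epithelial ETS factor, rose from 3.86 and 3.49 to 11.2 and 9.39 at 72 h (1.27). Tfcp2l1, a factor of collecting duct cells, fell from 49.4 and 49.9 at 0 h to 23.7 and 24.0 at 24 h and was at 36.1 and 38.7 at 72 h. Nr3c2, the mineralocorticoid receptor, fell by 0.72 on the log2 scale at 24 h and by 0.61 at 72 h.

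The osmotic and urea transport genes also split. Of 8 tested, 3 were higher and 5 lower at 24 and at 48 h, and 4 higher and 3 lower at 72 h. Nfat5, described above, is among the higher ones at all 3 times. Beside these counts, 25.8%, 28.5% and 37.6% of all rows were higher at 24, 48 and 72 h, and 40.0%, 42.1% and 32.4% lower. Hspa1b, a stress chaperone whose row also covers Hspa1a, had a mean of 2.29 FPKM at 0 h and 33.5 at 24 h. Slc14a2, the urea transporter of the inner medullary collecting duct and thin limb, read 5.43 and 6.53 at 0 h, against 33.9 and 26.7 at 24 h, 23.3 and 20.2 by 48 h and, last, 45.0 and 47.4 at 72 h, so that like Aqp2 it was highest at 72 h. Slc6a6, which imports the osmolyte taurine, fell from a mean of 92.4 to 32.6 at 24 h and 51.6 at 72 h. Sgk1, a kinase that raises sodium transport, was lower at 24 h (-0.51) and higher at 72 h (0.62).

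Genes of glycerol handling, set beside Aqp7 and Aqp3, fell or did not pass: of 11 tested, 10 were lower at 24 h, 9 at 48 h and 7 at 72 h, the rest not passing the test by limma, with medians of -0.85, -0.90 and -0.57. Lower calls made up 40.0% of all rows at 24 h, 42.1% at 48 h and 32.4% at 72 h. With libraries brought to 1 total 2 of the 11 were higher at 72 h. Pck1, a key enzyme of gluconeogenesis, had a mean of 254 FPKM at 24 h and 191 at 72 h, from 1197 at 0 h. Gpd1 and Gpd1l, which link glycerol phosphate to glycolysis, changed by -1.67 and -0.59 at 72 h, both called lower. Lpl, in a row that spans many other genes, fell by 2.67 on the log2 scale at 72 h. The fatty acid binding protein Fabp4 and the lipid droplet gene Cidec, the only 2 of 7 adipocyte markers that could be tested, were higher at all 3 times, and the summed level of those 7 was 19.2 to 21.1 FPKM at 0 h and 49.0 to 57.4 at 72 h. Nearly all of that sum was Fabp4, with means of 19.7 FPKM at 0 h and 51.0 at 72 h. The markers that could not be tested are named here after their values were seen. Adipoq, Plin1, Lep, Cfd and Pparg read at most 0.110, 0.0288, 0.00615, 0.0694 and 0.920 FPKM in any library. Fat cells also make Aqp7, which fell, and their part was not tested.

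Around Aqp11, genes of endoplasmic reticulum chaperones and stress were mostly lower: 3 of 16 higher and 10 lower at 24 h, with 2 and 12 by 48 h, and then 2 and 11 at 72 h, with medians of -0.51, -0.68 and -0.58. Among all rows 40.0%, 42.1% and 32.4% were lower at 24, 48 and 72 h, and 25.8%, 28.5% and 37.6% higher. The stress factor Ddit3 stood out upward, from 2.27 and 2.46 FPKM at 0 h to 23.3 and 20.9 at 24 h. Herpud1, which helps clear misfolded proteins, had a mean of 121 at 0 h and 28.1 at 48 h, and the disulfide isomerase Pdia4 one of 54.3 and 24.7. Dnajc3, in a row that covers several genes, fell by 1.27 on the log2 scale at 48 h. Among 9 genes linked to cystic kidney disease, of interest because loss of Aqp11 gives cysts, 8 were lower at 24 and at 48 h and 5 at 72 h, and the rest did not pass the test. Glis2 was the first of them by the F test, at a mean of 4.55 FPKM at 0 h and 0.696 at 24 h. Bicc1 and Ganab, the latter in a row over many genes, changed by -1.03 and -0.75 at 24 h.

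For each aquaporin the tested rows most like it over the 8 libraries were found by Pearson's r of log2(FPKM + 1). The r values are descriptions of 8 points that share 4 times. They were picked as the highest among those of the 10757 rows with a gene name, names of predicted genes left out. Aqp11 was most like Slc34a1 (r = 0.9995), the membrane enzyme gene Ggt1 (0.9994) and Pbld2 (0.9993, in a row with Pbld1), and the first 2 of these are proximal tubule brush border genes. Aqp7 was most like Adcy9 (0.9984), an adenylate cyclase, Cldn2 (0.9970), the leaky claudin of the proximal tubule, and Shb (0.9966, in a row with Slc25a51). Aqp1 was most like Tmco1 (0.9971), mt-Nd3 (0.9957), a subunit of mitochondrial complex I, and Trp53bp1 (0.9951). Adcy9 fell with Aqp7 from a mean of 6.48 FPKM at 0 h to 2.22 at 48 h and 2.51 at 72 h, and Cldn2 from 28.4 to 6.80 and 7.68. Aqp2 was followed most closely by Fam110a (0.9973), the translation initiation factor gene Eif3g (0.9973) and Irf9 (0.9947), an interferon response factor in a row with Rnf31. The nearest rows of Aqp3 were Cnot9 (0.9930), the NAD kinase gene Nadk (0.9910) and the phosphatase gene Ppp1cc (0.9909), those of Aqp4 were Vwa5a (0.9890), Galnt12 (0.9866) and the ribosomal protein gene Rpl28 (0.9844), and those of Aqp6 were Tmed10 (0.9812), Ercc6l2 (0.9606) and Sugp1 (0.9597). Among the aquaporins themselves the highest r were 0.97 for Aqp1 with Aqp11, 0.88 for Aqp2 with Aqp4 and 0.87 for Aqp3 with Aqp6. The lowest were -0.943 for Aqp2 with Aqp11, -0.937 for Aqp4 with Aqp11 and -0.936 for Aqp1 with Aqp4, and r was 0.03 for Aqp2 with Aqp3.

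Summed over all rows, the libraries held 448667 and 452114 FPKM at 0 h, then 375186 and 348891 at 24 h, 314173 and 317983 by 48 h, and finally 351353 and 354145 at 72 h, so bringing them to 1 total shifts all later libraries upward. That scaling moved the median difference of all rows from -0.12 to 0.12 at 24 h, from -0.13 to 0.28 at 48 h and from 0.07 to 0.35 at 72 h, and turned the split of all calls from 2772 higher and 4304 lower to 4165 and 2845 at 24 h. Under the 4 scalings tried, the 72 h differences lay between -1.45 and -0.90 for Aqp1, between -2.19 and -1.80 for Aqp11, between -1.51 and -1.11 for Aqp7 and between 1.46 and 1.90 for Aqp2, so the falls and the rise kept their direction.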

How the data were processed

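The labels' protocols describe a preparation of tubular cells from the cortex, lysis in Trizol, depletion of ribosomal RNA by Ribo-Zero and a library kit named as one for small RNA. The gene table holds FPKM made by the authors, named so per the file headers, and the submitters' processing notes name Bowtie 0.12.2, TopHat2, Cufflinks and mm10, with no role or order. The circRNA table holds counts deposited by the authors per back-splice and was used only to look for circles from aquaporin genes; 8 more columns of it were left out. Since data columns have letters (a, b) in place of replicate numbers, each was assigned to its time only.

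Gene names came from gene identifiers (19742 of 21874 rows matched), and rows were set against RefSeq spans with a tolerance of 2000 bases. All 8 libraries entered 1 fit with limma 3.58.1 in R 4.3.3 (intensity trend, robust moderation) on log2(FPKM + 1), over rows that reached 1 FPKM in 2 or more libraries, with 2-sided tests adjusted by Benjamini-Hochberg within each comparison. The script was tested on simulated data. FPKM gives no depth, so no counting interval is given. Alternatives were another pseudocount (0.1 or 5), filter, scaling or moderation, the 4 libraries compared alone, each library left out, and, chosen after seeing the data, only rows that keep to their own gene. Named are every aquaporin, up to 4 genes of each list by the smallest F test p, and the 3 rows most like each aquaporin; exceptions are marked. The aquaporins and the lists, written from textbook knowledge, were chosen with earlier results of these data known. RefSeq held promoter windows for 6 of the 7 genes in the set used here. A further promoter motif that was searched, and some genes of the lists, are not reported here.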

Additional observations from a re-analysis of the deposited data

How the results depend on the processing

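Of 645 values of the 7 aquaporins under alternative settings, 605 kept their direction and their side of the threshold, 16 lost a call, 17 gained one and 7 changed sign. Every alternative agreed for 23 of 35 comparisons, among them those of Aqp2, Aqp7 and Aqp11 with 0 h at all 3 times. The sign changed for Aqp1 at 24 h with libraries brought to 1 distribution (0.0232), to 1 total (0.11) or to 1 total without mitochondrially encoded rows (0.0322), for Aqp3 at 72 h without library b of 0 h (-0.0032, against 0.137 without library a), for Aqp2 between 24 and 48 h without library b of 24 h (-0.0522) or library a of 48 h (-0.0532), and for Aqp6 between 48 and 72 h without library b of 72 h (-0.0131, against 0.891 without library a), all differences that were not called as deposited. Aqp1 at 24 h was called at a minimum of 5 FPKM (adjusted p = 0.0472, limma) and without either 48 h library (0.0212 and 0.0211).

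Over all rows, leaving out 1 library gave 6269 to 7047 calls at 24 h, 6811 to 7753 at 48 h, 6720 to 7746 at 72 h, 1823 to 2870 between 24 and 48 h (3046 with all libraries; 1823 without library a and 1839 without library b of 48 h), 3686 to 5529 between 48 and 72 h, and 8496 to 9105 by the F test. Rows that keep to their own gene, fewer rows tested, gave 4238, 4519, 4565, 1751 and 3189 calls in these comparisons and 5470 by the F test. Splits of higher and lower calls moved with the scaling. At 24 h they were 3451 and 3619 with 1 median, 3241 and 3544 with 1 distribution, 4165 and 2845 with 1 total and 3772 and 3208 without mitochondrially encoded rows. At 48 h they were 3061 and 4524 as deposited and 3827 and 3885, 3678 and 3769, 5279 and 2604, and 4958 and 2851 in the same order. At 72 h they were 4049 and 3486 as deposited and, in that order, 3732 and 3847, 3730 and 3681, 5736 and 2327, and 5427 and 2512. From 24 to 48 h they were 1200 and 1846 as deposited and 1323 and 1808, 1576 and 1562, 2735 and 991, and 2789 and 963. From 48 to 72 h they were 3999 and 1212 as deposited and 2224 and 2580, 2426 and 2465, 2856 and 2035, and 2907 and 1979. Of 1938 counts of list members under alternatives, 151 moved by over 1.5 times. Rows of Aqp3, Aqp4, Aqp7 and Aqp11 reach past their gene and have no value when only rows that keep to their own gene are used. No paired analysis was possible because the columns carry letters, which no label ties to its replicate numbers; a block by letter was not fitted. The circRNA alternatives were not run, since no circRNA lay in an aquaporin gene. The depth behind the FPKM is unknown, and the widest intervals were those of Aqp6, 1 of the lowest of the 7.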
